A study of Mus musculus with 6 samples.

Results

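A set of 9 genes of plasminogen activation and of the control of blood clotting was followed in the corneal epithelium of mice that lack *Rela* in cells using the keratin 14 promoter. The members were *Plau*, *Plat*, *Plaur*, *Serpine2*, *F3*, *Thbd*, *Procr*, *Tfpi* and *Tfpi2*, taken by gene symbol. Of these 9, 8 were found among the 17554 genes of the deposited table, while the level of *Tfpi2* was not analysed here. They were named with the difference between the genotypes already known, so their own differences are given as a description with no p-value. Where the thresholds of the fit over all genes are used to count members or to place a single member, this describes the choice of members. It is no test of that choice or of the member. The corneal epithelial layer of 3 control and 3 mutant mice was profiled by bulk RNA-seq, which reads all cells of a sample as 1 mixture. All mice were 2 months old and of strain C57BL/6. The control group is labelled WT. The mutant group is labelled Rela-/- and is described in the study as *Krt14-Cre; Rela f/f*, in which a Cre recombinase removes a floxed part of *Rela*, the gene of the RelA subunit of NF-κB. This driver is not private to the cornea, since the study traced its activity to the limbus, conjunctiva, meibomian glands, skin, oral mucosa and trachea as well. The samples carried 19492942 to 19733834 expected counts each, and a gene with 3 counts or fewer is treated as not detected, a limit that covers counting error only.

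Plasminogen is a circulating proenzyme that is cut to plasmin, the protease that dissolves fibrin and also acts on matrix proteins. Urokinase (*Plau*) and tissue plasminogen activator (*Plat*) make that cut, the urokinase receptor (*Plaur*) holds urokinase at the cell surface, and inhibitors of the serpin family such as protease nexin-1 (*Serpine2*) block the activators. Clotting is started by tissue factor (*F3*), a membrane protein of epithelia that line the body surface, and is restrained by tissue factor pathway inhibitor (*Tfpi*), by thrombomodulin (*Thbd*) and by the endothelial protein C receptor (*Procr*). In the cornea, activators of plasminogen are known for their part in the closure of epithelial wounds.

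The table of RefSeq promoter windows used here (build GRCm38.p6) was matched by symbol for 6 of the 9 members, of which 3, *Plaur*, *F3* and *Procr*, had enough counts to be compared between genotypes. These 3 windows are shown because the deleted gene encodes a transcription factor subunit, whose κB consensus can be looked for in the letters of a promoter. Each window runs from 250 bases before to 50 bases after an annotated transcript start, on the plus strand and inside or next to the gene span given further on, at chr7:24462233-24462532 for *Plaur*, chr3:121723287-121723586 for *F3* and chr2:155750967-155751266 for *Procr*. Capitals mark matches on either strand to AP-1 (TGACTCA), the GC box (GGGCGG), the TATA box (TATAAA) or the κB consensus, and the GC boxes of *Plaur* form a run in which neighbours touch or overlap.
Plaur: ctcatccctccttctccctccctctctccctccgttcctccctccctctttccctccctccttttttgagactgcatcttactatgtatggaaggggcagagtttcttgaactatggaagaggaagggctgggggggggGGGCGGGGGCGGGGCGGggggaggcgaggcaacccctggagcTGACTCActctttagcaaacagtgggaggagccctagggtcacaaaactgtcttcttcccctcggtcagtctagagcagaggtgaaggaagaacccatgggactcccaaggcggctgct
F3: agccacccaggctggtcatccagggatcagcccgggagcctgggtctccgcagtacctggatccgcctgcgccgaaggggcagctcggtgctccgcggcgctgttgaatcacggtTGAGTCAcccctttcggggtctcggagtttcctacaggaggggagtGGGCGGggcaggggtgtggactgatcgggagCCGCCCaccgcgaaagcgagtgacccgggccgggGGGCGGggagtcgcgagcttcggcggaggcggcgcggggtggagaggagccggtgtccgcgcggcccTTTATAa
Procr: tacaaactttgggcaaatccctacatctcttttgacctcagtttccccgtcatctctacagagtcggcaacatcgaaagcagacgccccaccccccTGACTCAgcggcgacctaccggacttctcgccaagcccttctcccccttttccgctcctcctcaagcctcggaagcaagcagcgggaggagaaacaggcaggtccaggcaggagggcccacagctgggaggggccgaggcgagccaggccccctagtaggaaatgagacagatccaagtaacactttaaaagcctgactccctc

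An AP-1 match was found in 3 of the 6 members with windows, and *Serpine2*, *Tfpi* and *Tfpi2* held none. The match began at position -69 from the start in *Plaur*, -135 in *F3* (on the opposite strand) and -154 in *Procr*. Of all 32851 promoter windows of this length in the RefSeq table, 5.2% held such a match. That is a share of windows and not of genes, and *Tfpi* and *Tfpi2* had more than 1 window each. The κB consensus was searched only as GGGRNNYYCC, where R is A or G, Y is C or T and N is any base. In this form it was not found in the windows of these 6 members and occurred in 8.46% of all windows. Other forms were not searched, among them those with a first C, which the study's motif allows. Such a form can be read in the printed window of *F3*, as cggagtttcc, which departs from the searched consensus in its first letter only. It is not marked in capitals, and its share among all windows was not counted. A κB site of another form in the other windows is not excluded. Of the 3 sequences shown, *Plaur* and *F3* held 3 GC boxes each and *Procr* none, and 35.7% of all windows held at least 1. *F3* also had a TATA box match on the opposite strand, at position 44, and 13.6% of all windows hold such a match. A match describes letters and not a bound site.

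**Figure D1:**
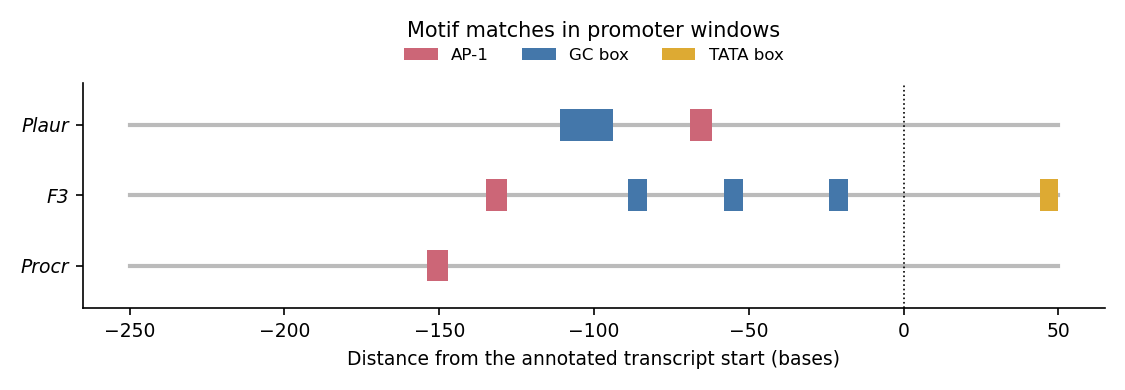
Positions of motif matches in the promoter windows of *Plaur*, *F3* and *Procr*, with the distance from the annotated transcript start in bases on the x axis and 1 line per gene. Coloured boxes are matches on either strand, and each line carries 1 AP-1 box, at -69 in *Plaur*, -135 in *F3* and -154 in *Procr*.

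*Rela* was lower in the mutant samples, with a level of 34.9 ± 1.5 FPKM in the control and 5.39 ± 0.41 FPKM in the mutant group (SD, n = 3 each). FPKM is a level scaled for transcript length and for the total of the sample, so that genes can be compared with each other. Marker genes were read as summed FPKM to see what the samples held. Those of the corneal epithelium (6 genes, *Krt12* the highest) summed to 45650 to 49730 in the control and 41940 to 45690 in the mutant samples. Within that list *Krt14*, whose promoter drives the Cre, had an FPKM of 178 ± 27 and 1753 ± 394 (SD, n = 3). Endothelial markers (7 genes) summed to 1.06 to 2.05 in the control and 0.95 to 1.25 in the mutant samples, and 4 of the 7 had at most 3 counts in every sample. *Tie1* made most of these sums, at 0.89 to 1.80 in the control and 0.70 to 0.93 in the mutant samples. *Pecam1* was higher in the mutant samples, at 0.12 to 0.23 against 0.03 to 0.08, and the others were at 0.15 or less. Keratocyte markers (7 genes) summed to 0.14 to 0.25 and 0.75 to 3.61, and the mean was higher in the mutant group for 6 of the 7. Among them *Dcn* had a mean FPKM of 0.057 and 1.05 and *Lum* one of 0.0067 and 0.27, while *Kera* was at 0.07 or less throughout. Platelet markers (3 genes) summed to 2.05 to 2.33 in the control samples, nearly all of it *Itga2b*, and to 7.27 to 37.18 in the mutant samples, where *Ppbp* was at 5.38 to 34.94. *Pf4* was at 0 in the control samples and at most 0.46 in a mutant sample. *Itga2b* was lower in each mutant sample, at 1.58 to 1.89 against 2.00 to 2.23 in the controls, so the platelet sum rose mainly through *Ppbp*. Immune markers (8 genes) summed to 85.3 to 92.0 and 80.1 to 125.2, and *Itgam* was the highest of them. *Lyz2* had a mean FPKM of 0.017 and 0.67 and was highest in the mutant sample 1, and *Ptprc* was at 0.15 or less. Red blood cell markers (3 genes) summed to 3.18 to 4.29 and 2.25 to 2.66, conjunctival markers (4 genes) to 1362 to 1595 and 1074 to 1191, and epidermal markers (5 genes) to 8.9 to 12.52 and 13.87 to 17.89. The epidermal sum rose through *Ivl*, with a mean FPKM of 4.74 in the control and 9.98 in the mutant group. *Krt1* (2.55 and 2.39) and *Krt10* (3.70 and 3.18) were not higher, and *Lor* and *Flg* were at 0.17 or less. In bulk RNA, fewer cells of a type and less RNA per cell cannot be told apart.

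Of the 8 members, 5 passed the filter on low counts and were compared by edgeR's quasi-likelihood fit over 12667 genes, *Plaur* through its counts in the mutant group alone. *Plaur*, *Plau*, *Plat* and *Procr* were higher in the mutant samples without overlap between the groups, and *F3* was lower with overlap. A gene is called differentially expressed where its adjusted p does not exceed 0.001 and the groups differ 2-fold or more, the thresholds of the study's methods. By this rule 2 of the 5 members, *Plaur* and *Plau*, were higher, against 1.31% of all genes tested, and none was lower, against 0.0553%. At an adjusted p under 0.05 alone, 4 of the 5 were higher, against 7.82% of all genes, and none lower, against 5.42%. FPKM did not overlap between the groups, with the mutant higher, for 4 members, and 17.5% of all genes did so. For 0 members did the mutant lie lower without overlap, against 15.2% of all genes. In DESeq2 *Plat* was also differentially expressed and *F3* was also lower at an adjusted p under 0.05. Because this same contrast led to the choice of members, nothing is read from these shares. The median log2 fold change was 1.24 over the 5 members and -0.0028 over all genes tested.

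**Figure D2:**
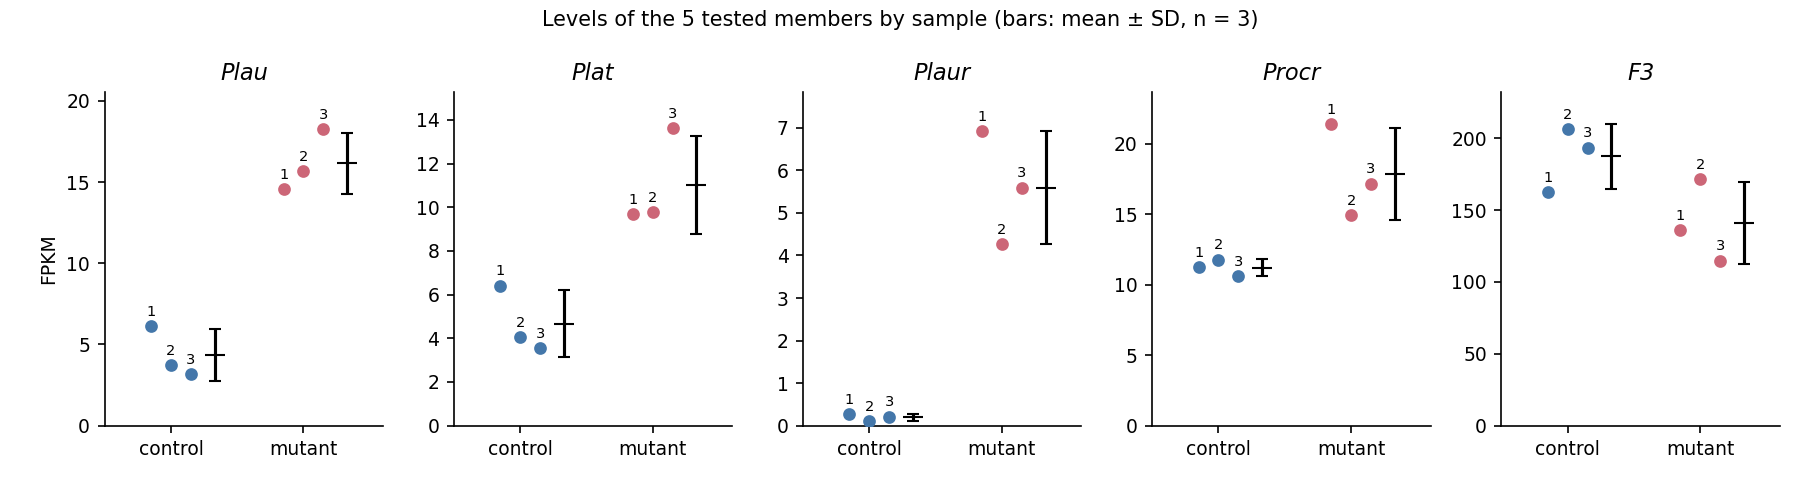
FPKM of the 5 members with enough counts, by genotype, with points for samples 1 to 3 of each group and black bars for the mean and SD (n = 3). Each panel has its own axis from 0. In the panels of *Plau*, *Plat*, *Plaur* and *Procr* each mutant point lies above each control point, and in *F3* the groups overlap.

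Among the activators, *Plau* (gene 18792, chromosome 14 of GRCm38, 20836662 to 20843388) encodes urokinase. Its FPKM was 6.14, 3.71 and 3.16 in the controls against 14.57, 15.66 and 18.25 in the mutant samples. The lowest mutant sample was thus well above the highest control sample, and control sample 1 stood above the other two. The means were 4.34 ± 1.59 and 16.2 ± 1.9 (SD, n = 3 each), and the fitted log2 fold change was 1.91 (standard error 0.20), a 3.76-fold difference. Without the control sample 1 it was 2.24. Its place among differentially expressed genes was lost without the control sample 2, the control sample 3, the mutant sample 2 or the mutant sample 3, with log2 fold changes of 1.79, 1.74, 1.93 and 1.82.

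*Plat* (gene 18791, chromosome 8, 22757722 to 22782848) encodes tissue plasminogen activator, which binds fibrin. It was at 6.40, 4.05 and 3.54 FPKM in the controls against 9.68, 9.77 and 13.62 in the mutant samples. As with *Plau*, the control sample 1 was the highest control and the mutant sample 3 the highest mutant. The means were 4.66 ± 1.53 and 11.02 ± 2.25 (SD, n = 3), and the log2 fold change was 1.24 (standard error 0.21), or 2.36-fold. It was past the fold threshold but not past an adjusted p of 0.001 in edgeR, and it was differentially expressed in DESeq2.

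The activators kept a nearly constant proportion within each genotype while their sum varied. *Plau* made 49.0%, 47.8% and 47.2% of the summed FPKM of both genes in the control samples, where that sum ran from 6.70 to 12.54. In the mutant samples it made 60.1%, 61.6% and 57.3% of sums from 24.25 to 31.87. The means were 48.0% ± 0.9 and 59.6% ± 2.2 (SD, n = 3), and the groups did not overlap. The spread between control samples was itself large for both genes. The highest control value was 1.94 times the lowest for *Plau*, a ratio that 0.73% of 10552 genes with an FPKM of at least 1 in every control sample reached, and 1.81 times for *Plat*, reached by 1.12%. In the mutant samples the ratios were 1.25 and 1.41, which 32.9% and 12.8% of 10624 genes reached.

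**Figure D3:**
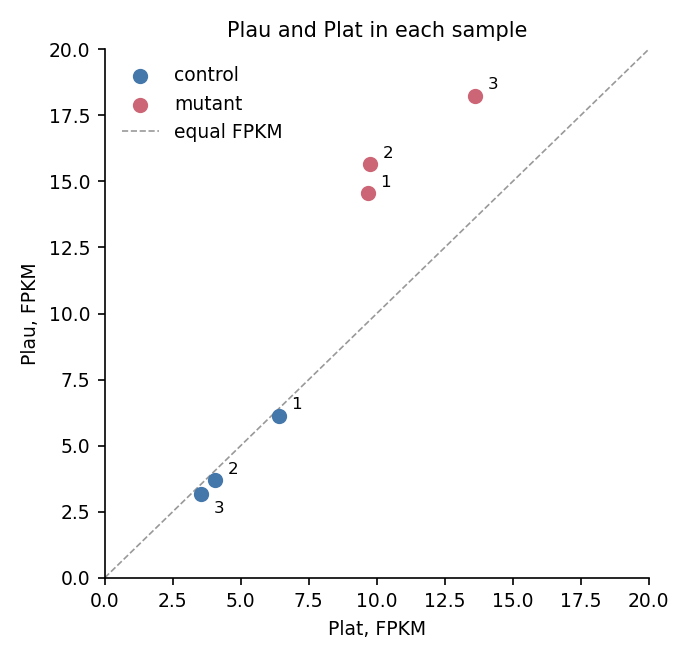
FPKM of *Plat* on the x axis against FPKM of *Plau* on the y axis, 1 point per sample, numbered as labelled, with a dashed line where both are equal. The control samples lie just under the line, at 47.2% to 49.0% *Plau*, and the mutant samples above it, at 57.3% to 61.6%.

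The receptor gene *Plaur* (gene 18793, chromosome 7, 24460937 to 24475968), whose product anchors urokinase to the membrane, showed the widest separation of the members. It had 8, 3 and 6 counts in the control samples, so that it was barely detected, and 202, 125 and 165 counts in the mutant samples. In FPKM these were 0.27, 0.10 and 0.21 against 6.92, 4.27 and 5.59, with means of 0.19 ± 0.09 and 5.59 ± 1.33 (SD, n = 3). The groups lay far apart. The log2 fold change was 4.82 (standard error 0.32). Since the control counts are so few, the ratio of the summed counts, scaled by library totals, is also given, 492 against 17, which is 28.9 with an exact 95% interval of 17.9 to 50 for counting error only. The share of all tested genes with a lower mean FPKM went from 3.40% in the control to 39.6% in the mutant group. *Plaur* was at 0.027 to 0.066 of the FPKM of its ligand gene *Plau* in the controls against 0.273 to 0.475 in the mutant samples.

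*Procr* (gene 19124, chromosome 2, 155751125 to 155755478), the receptor that presents protein C for activation, had the tightest control values. They were 11.23, 11.78 and 10.61 FPKM, against 21.38, 14.95 and 17.17 in the mutant samples. The mutant sample 1 was the highest and carried the wider spread of that group. The means were 11.2 ± 0.6 and 17.8 ± 3.3 (SD, n = 3), and the log2 fold change was 0.68 (standard error 0.13), a 1.599-fold difference. Without the mutant sample 1 the log2 fold change was 0.52.

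*F3* (gene 14066, chromosome 3, 121723055 to 121735540), the trigger of clotting, was the most abundant member in both groups and the single tested one that was lower in the mutant samples. Its FPKM was 162.4, 206.5 and 193.5 in the controls against 136.2, 171.5 and 114.8 in the mutant samples. The mutant sample 2 lay above the control sample 1, so the groups overlapped. The means were 188 ± 23 and 141 ± 29 (SD, n = 3), and the log2 fold change of -0.41 (standard error 0.15) moved between -0.28 without the mutant sample 3 and -0.59 without the mutant sample 2. Among all tested genes, 97.7% had a lower mean FPKM than *F3* in the control and 96.7% in the mutant group. Against *Procr*, *F3* was 14.5 to 18.2 times as high in the controls, compared with 6.37 to 11.5 times in the mutant samples, ranges that did not overlap.

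The remaining members were at the limit of detection in both genotypes. *Serpine2*, the protease nexin that inhibits thrombin and urokinase, had 1, 4 and 2 counts in the controls against 8, 2 and 1 in the mutant samples. *Tfpi*, the inhibitor of the tissue factor pathway, had 1, 1 and 4 against 7, 2 and 3. The ratios of summed counts, 1.57 (exact 95% interval 0.56 to 4.77) and 2.00 (0.69 to 6.48), leave a rise or a fall not detectable at this depth. *Thbd*, the thrombin receptor that turns on protein C, had 0, 0 and 1 counts and 2, 1 and 0 counts, and no fold is given. Among the clotting genes the trigger *F3* and the receptor *Procr* were measured well, and their partners *Tfpi* and *Thbd* were not.

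Ordered by mean FPKM, the control samples had *F3* first, then *Procr*, *Plat*, *Plau* and *Plaur*, and the mutant samples *F3*, *Procr*, *Plau*, *Plat* and *Plaur*. *Plat* and *Plau* overlapped in the control samples and *Procr* and *Plau* in the mutant samples, while the other neighbours in each order did not. The exons of the 8 members overlapped no other gene of the GENCODE annotation of GRCm38, and no 50-base window of the transcripts of the 5 tested members occurred in another gene. Their counts are therefore not split with a copy.

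The mutant samples did not rank the members alike. *Plaur* and *Procr* were highest in the mutant sample 1, and *Plau* and *Plat* were highest in the mutant sample 3. Keratocyte markers summed to 3.61, 1.96 and 0.75 in the mutant samples 1, 2 and 3, and platelet markers to 37.18, 16.32 and 7.27. Of the platelet sums *Ppbp* alone made 34.94, 14.56 and 5.38, and *Itga2b* was lower than in the controls. In the control samples both marker sums were lower than in each mutant sample, as were all 4 genes. The part of other cells in the differences of the 4 genes was not tested. Without the mutant sample 1 the log2 fold changes were 4.63 for *Plaur*, 1.98 for *Plau*, 1.32 for *Plat* and 0.52 for *Procr*.

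Further genes, of plasminogen activation, clotting and the inhibition of serine proteases, were taken from lists fixed by function. The lists were chosen with earlier results of these data known, so nothing is read from the shares below. Of 49 such genes, 41 were in the table and 24 had enough counts to be tested. Among these 24, 8 rose and 1 fell at an adjusted p under 0.05 in the quasi-likelihood test of edgeR with Benjamini-Hochberg values, and 4 were differentially expressed, all higher. Over all genes 7.82% rose and 5.42% fell by the first rule, 13.2% in either direction. By the second rule 1.31% were higher, and 1.37% passed in either direction. Of the 4 genes, 3 were in the list of further serine protease inhibitors, and the other, *Serping1*, in the anticoagulant list. No gene of the plasminogen, coagulation factor or protease-activated receptor lists was among them. *Serpinb2* and *Serpina3n*, which rose by the first rule, passed the filter through their mutant counts alone. The median log2 fold change of the 24 was 0.014, with 12 above and 12 below 0. Without the control sample 2 or the control sample 3 the single differentially expressed gene was *Serping1*, and without the control sample 1 there were 2, *Serping1* and *Serpina3n*.

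In the plasminogen system, 2 of 7 tested genes rose. *Serpinb2*, which encodes plasminogen activator inhibitor 2, had an FPKM of 0.33, 0.10 and 0.15 in the controls against 5.73, 2.14 and 2.31 in the mutant samples, with the mutant sample 1 far above the others. Its log2 fold change was 4.07 (standard error 0.52, edgeR adjusted p = 0.00102), and 10.4% of its 50-base windows also occur in *Serpinb10*. *Eno1*, a glycolytic enzyme that also binds plasminogen at the cell surface, rose from 167 ± 12 to 276 ± 7 FPKM (SD, n = 3; edgeR adjusted p = 3.85e-04), but 25.99% of its 50-base windows also occur in *Eno1b* and other copies, so that its counts are uncertain.

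The other tested genes of this list did not pass the test. *Anxa2*, the highest gene of the list, had an FPKM of 1750 ± 91 and 1848 ± 228 (SD, n = 3), and a log2 fold change of 0.076 (standard error 0.11) that turned to -0.020 without the mutant sample 1. *S100a10*, the partner of the *Anxa2* product, and *Plgrkt*, a plasminogen receptor, had log2 fold changes of -0.021 and -0.12, and *Lrp1*, which clears activator and inhibitor complexes, one of 0.048. *Mrc2*, a collagen receptor known as a partner of the urokinase receptor, was at 2.38 ± 0.29 and 1.83 ± 0.16 FPKM and had a log2 fold change of -0.39 (standard error 0.12, edgeR adjusted p = 0.0616). *Plg* itself, made mainly in the liver, was at 0 FPKM in all samples but 1, in which it was at 0.02.

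Few coagulation factors were measurable. Of 12 listed, 6 were tested, and 4 had at most 3 counts in every sample. *Ano6*, whose product moves phosphatidylserine to the cell surface, rose from 0.27 ± 0.02 to 0.70 ± 0.26 FPKM (SD, n = 3; log2 fold change 1.37 with a standard error of 0.28, edgeR adjusted p = 0.0111). Of its 50-base windows 2.74% occur in other genes, among them opposite-strand transcripts. The call was lost without the control sample 2 (adjusted p = 0.052). *Vkorc1*, of the vitamin K cycle and the highest gene of the list, was at 28.9 ± 6.8 and 26.6 ± 0.5 FPKM, and its log2 fold change of -0.12 turned to 0.078 without the control sample 1. *F8*, *F10*, *Vwf* and *Ggcx* had log2 fold changes from -0.29 to -0.034 and did not pass the test.

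Of 7 genes in the list named anticoagulant, 2 were tested, and of these only *Serping1* encodes an inhibitor of clotting enzymes. *Serping1*, the C1 inhibitor that also blocks contact activation, rose from 0.53 ± 0.12 to 7.14 ± 1.54 FPKM (SD, n = 3; log2 fold change 3.73 with a standard error of 0.23, edgeR adjusted p = 2.2e-05). *Gas6*, a vitamin K dependent ligand of TAM receptors, fell from 73.0 ± 3.7 to 55.2 ± 6.8 FPKM (log2 fold change -0.41 with a standard error of 0.09, edgeR adjusted p = 0.0176). Its adjusted p was 0.0658, 0.069 and 0.0501 without the control sample 1, the control sample 2 or the mutant sample 2. *Proc*, *Pros1*, *Proz*, *Serpinc1* and *Serpind1* had too few counts to be tested. RNA of *Proc*, which encodes protein C, the ligand of the *Procr* product, was thus not detectable in these samples at this depth. The protein itself was not measured.

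Protease-activated receptors are cut by thrombin, trypsin-like enzymes or plasmin. *F2rl1* (PAR2), the highest of the 3 tested, had an FPKM of 34.57, 28.09 and 29.12 in the controls against 34.81, 45.35 and 43.74 in the mutant samples. It rose by a log2 fold change of 0.43 (standard error 0.11, edgeR adjusted p = 0.0364), which did not hold without the control sample 2, the control sample 3, the mutant sample 2 or the mutant sample 3 (adjusted p = 0.147, 0.123, 0.117 and 0.0824). *F2r* (PAR1), the thrombin receptor, had a log2 fold change of -0.36 (standard error 0.18, edgeR adjusted p = 0.237) and *F2rl3* (PAR4) one of -0.63 (standard error 0.43).

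Of 6 further inhibitors of serine proteases, 3 rose. *Serpina3n*, an inhibitor of the acute phase, had 0.10, 0.24 and 0.32 FPKM in the controls against 20.30, 13.40 and 7.76 in the mutant samples. Its log2 fold change was 5.95 (standard error 0.47, edgeR adjusted p = 6.98e-05), and 6.9% of its 50-base windows occur in related genes. *Serpina3n* too passed the filter through the mutant group alone. Its summed counts were 1691 against 27, a scaled ratio of 62.5 (exact 95% interval 42.8 to 95.2, counting error only). *Spink5*, the inhibitor of epidermal kallikreins, rose from 18.0 ± 2.8 to 52.0 ± 14.7 FPKM (SD, n = 3; edgeR adjusted p = 9.35e-04). *Wfdc2*, a secreted protein with whey acidic domains, rose from 46.3 ± 3.5 to 94.9 ± 13.2 FPKM (edgeR adjusted p = 3.79e-04). *Spint2*, a membrane Kunitz inhibitor and the highest gene of the list, was at 351 ± 6 and 310 ± 5 FPKM and had a log2 fold change of -0.18 (standard error 0.07, edgeR adjusted p = 0.115). *Spint1*, a related inhibitor, had a log2 fold change of 0.16 and *Slpi*, a secreted inhibitor of leukocyte elastase, one of 0.46, and neither passed the test. In *Serpinb2*, *Serping1*, *Serpina3n*, *Spink5* and *Wfdc2*, as in *Plaur* and *Procr*, the mutant sample 1 was the highest. The keratocyte and platelet marker sums were highest in that sample too, the platelet sum mainly through *Ppbp*. The part of other cells in these differences was not tested. Without it 4 of the 24 genes were again differentially expressed, with *Serpinb2* in place of *Wfdc2*.

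**Figure D4:**
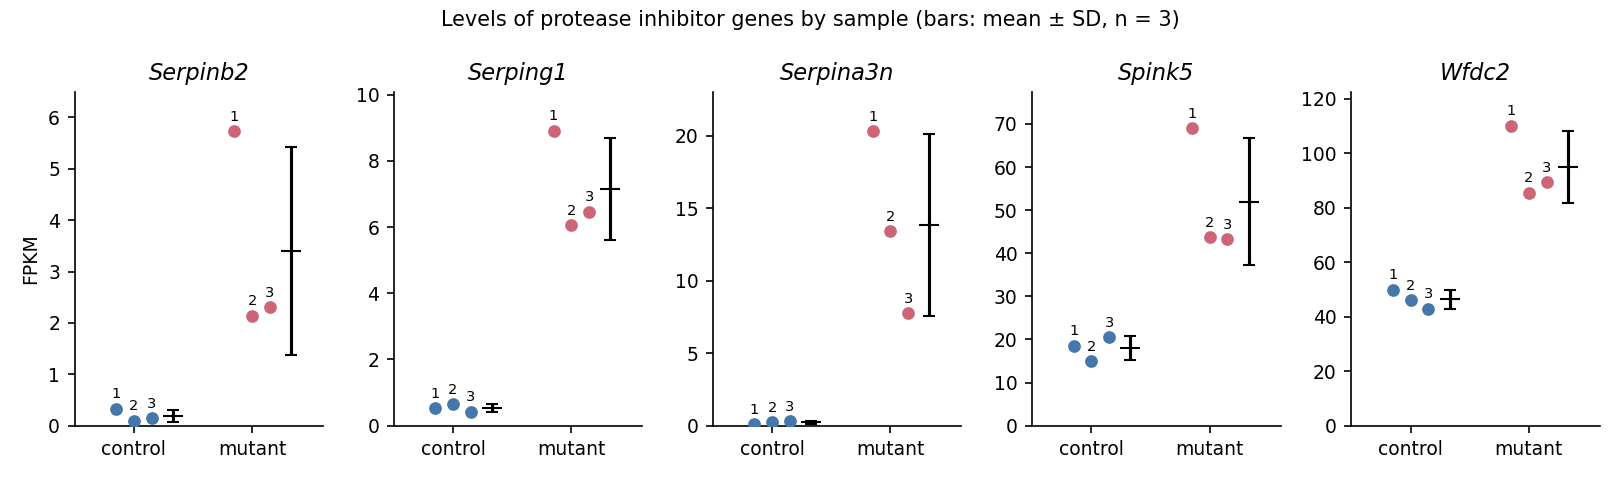
FPKM of 5 protease inhibitor genes that rose in the mutant samples, by genotype, with numbered points for samples and black bars for the mean and SD (n = 3). Each panel has its own axis from 0. *Serping1* lies at 0.42 to 0.65 in the control and 6.06 to 8.91 in the mutant samples, and the mutant sample 1 is the highest point in each panel.

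**Figure D5:**
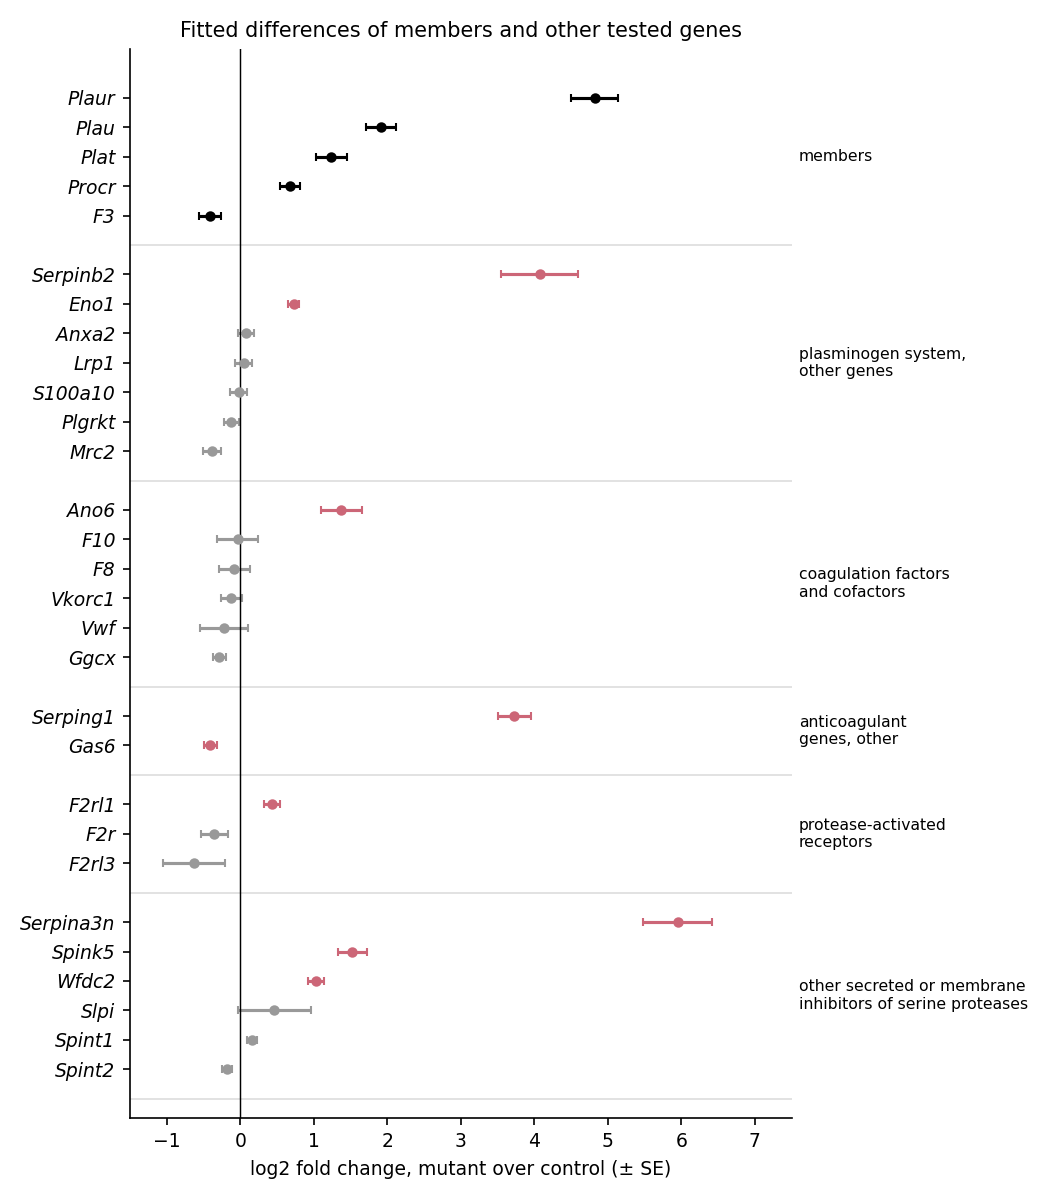
Fitted log2 fold change, mutant over control, with standard error bars, for the 5 tested members (black) and the 24 other tested genes, grouped by list. Red points passed an adjusted p under 0.05 and grey points did not, and members carry no test. *Serpina3n* at 5.95 lies farthest to the right and *Plaur* at 4.82 is the highest member.

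The genes most like *Plaur* and *F3*, the members with the largest rise and the largest fall, were found by the root mean square difference of log2 CPM profiles, centred on the control mean, over the 6 samples. For *Plaur* they were *Sema3c* (a difference of 0.22), *Fhl2* (0.26) and *Slc16a3* (0.32), with log2 fold changes of 4.59, 5.99 and 4.52. They had mean FPKM of 0.03 to 0.16 in the control and 1.75 to 3.83 in the mutant samples, so like *Plaur* they were near the limit of detection in control epithelium. The profiles carry a small added count, which shrinks the change of a gene near 0. *Fhl2* thus lay near *Plaur* although its fitted change was larger than the 4.82 of *Plaur*. For *F3* the nearest genes were *Mdfic* (0.09), *Cpeb3* (0.09) and *Prss32* (0.10), with log2 fold changes of -0.43, -0.37 and -0.49.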

How the data were processed

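The authors extracted RNA of the corneal epithelial layer, removed rRNA and sequenced single-end reads of 50 bases, although the library kit named in the labels is a different one. They filtered reads with SOAPnuke, aligned them with Bowtie2 2.2.5 and estimated values with RSEM 1.2.12, per the submitters' processing notes. The deposited expected counts are RSEM estimates per gene and sample, neither normalized nor pooled, and 34.9% to 36.0% of those above 0 are not whole. The deposited FPKM values are scaled by RSEM for transcript length and sample total. The notes name mm9, but the coordinates in the table are those of GRCm38. Columns of the authors' own fold changes, p-values and q-values were not used.

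Expected counts were rounded and fitted with edgeR 4.0.16 in R 4.3.3 by a quasi-likelihood model of genotype with TMM factors, after filterByExpr (count 10, total 15). The p-values were adjusted over 12667 genes by Benjamini-Hochberg, and standard errors come from dividing the fitted log2 change by the root of the F statistic. Total counts of 19492942 to 19733834 per sample set the precision, and ratios of summed counts carry exact binomial intervals (95%). Levels of different genes were compared in FPKM only. The study describes the samples as independent, and the labels give no further origin, so p-values measure the spread between these samples. The fit was repeated with each sample left out, with a replicate block, in DESeq2 1.42.0, in limma 3.58.1 (log2 FPKM with pseudocounts of 1 or 0.1), with upper-quartile factors, without the filter and with a floor of 10 counts in all samples. Scripts were tested on simulated data.

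The members, lists and tests were chosen with earlier results of these data known. The genes named are the members, every gene of the lists that passed either rule, the highest gene of each list, *Rela*, and 3 genes most like each of 2 members, and other genes of the lists were named after their values had been seen. The lists are given without 1 gene that is not reported here.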

Additional observations from a re-analysis of the deposited data

How the results depend on the processing

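The log2 fold changes of *Plaur*, *Plau*, *Plat*, *Procr* and *F3* kept their direction under every alternative that gave a value, from 2.45 to 5.13 for *Plaur*, 1.72 to 2.24 for *Plau*, 1.07 to 1.52 for *Plat*, 0.52 to 0.79 for *Procr* and -0.59 to -0.28 for *F3*. The value of *Plaur* was 2.45 in limma with a pseudocount of 1 and 4.30 with one of 0.1, since a pseudocount shrinks the change of a gene near 0. Requiring at least 10 counts in every sample removed *Plaur*, *Serpinb2* and *Serpina3n* from the test. That left 1 differentially expressed member in place of 2 and 3 other listed genes in place of 4. Leaving out each sample in turn gave 1 to 2 differentially expressed members and 1 to 5 other genes. At an adjusted p under 0.05 it gave 4 to 5 members and 6 to 9 other genes. With each sample left out, *Anxa2* ran from -0.020 (without the mutant sample 1) to 0.17 and *Vkorc1* from -0.23 to 0.078 (without the control sample 1), and neither passed the test in any fit. The cause was not tested. Beyond fits with a sample left out, *F2rl1* was above an adjusted p of 0.05 in limma with a pseudocount of 1 (0.0512) and with the replicate block (0.0753). The replicate block gave 2 differentially expressed members and 4 at an adjusted p under 0.05, as without it, and 5 and 8 other genes in place of 4 and 9. Same-numbered samples share only a number: their deviations from the group means correlated at -0.05 to 0.05 over genes, and not every sample correlated best with its own number. Depth limits *Serpine2*, *Tfpi* and *Thbd*, which had at most 8 counts in a sample.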
